A study of Homo sapiens with 6 samples.

Results

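The 9 genes described here encode the 5 NF-kB transcription factor subunits (NFKB1, NFKB2, REL, RELA and RELB), 2 inhibitors that hold them in the cytoplasm (NFKBIA and NFKBIE), the feedback inhibitor TNFAIP3 and the protease MALT1 of the CBM complex, a signalling complex of lymphocytes. They were found by symbol, as the rows of each library's expression table that name one of them alone or beside other genes, among 56584 symbols named in the 6 tables. All 9 were found in every library. Of these, 8 entered the comparison of 10719 genes, and NFKBIE did not, because in 1 library it was merged into a row with another protein-coding gene. No member was lost to the filter on low values. The libraries hold polyadenylated RNA of immortalized human B cells of lymphoma origin, 3 from LY19Y646F and 3 from LY19WT. LY19Y646F expresses the mutant histone methyltransferase EZH2-Y646F constitutively from a CMV promoter, and LY19WT has wild-type EZH2. Both lines were untreated and grown in the same medium, at the same stated range of passages. Each group is therefore 1 cell line, so that the EZH2 allele and any other difference between the lines cannot be told apart. The design text calls the libraries of a line biological replicates. Whether each had its own culture is not said, and the p-values below then measure the spread between these libraries, which may be technical.

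NF-kB acts as dimers. RELA, REL and RELB carry transactivation domains, while the p50 and p52 products of NFKB1 and NFKB2 do not and bind DNA mostly as partners of the Rel proteins. In the canonical pathway the IKK complex marks IkB inhibitors for destruction and frees dimers of RELA or REL with p50, and in the non-canonical pathway the processing of NFKB2 frees RELB with p52. In B cells, antigen receptor signals reach IKK through the CBM complex, and NFKBIA and TNFAIP3, both induced by NF-kB, end the response. TNFAIP3, REL and other genes of this circuit are recurrently altered in B cell lymphomas.

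Several members are known targets of NF-kB, so their promoters were searched for the kB letters GGGNNTTTCC on both strands. The windows ran from 250 bases before to 50 bases after each annotated start in RefSeq (GRCh38.p14), 300 bases each. The motif stood in 671 of 35116 windows, 1.91% of all. RefSeq windows were at hand for 7 members, 11 windows in all, and 5 of the 7 members had at least 1 match. The share of all windows counts windows and the member count counts genes, so they are not like for like. These letters were chosen with the matches in view, and a match is a description of the sequence, not a measured binding site. The 110 bases before the start follow for every window with a match, because they carry the kB letters in question. They read 5′ to 3′ in the direction of the gene, with the match in capitals, which appears as GGAAANNCCC where the motif lies on the opposite strand. These coordinates belong to GRCh38.p14 only, while the expression values below belong to hg19.
NFKB1 chr4:102501249-102501358 (plus strand): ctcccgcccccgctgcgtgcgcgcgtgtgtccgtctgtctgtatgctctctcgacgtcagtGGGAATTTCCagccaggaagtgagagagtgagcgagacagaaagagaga
NFKB2 chr10:102394468-102394577 (plus strand): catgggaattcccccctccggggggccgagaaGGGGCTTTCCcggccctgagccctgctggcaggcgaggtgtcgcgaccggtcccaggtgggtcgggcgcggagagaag
NFKB2 chr10:102395595-102395704 (plus strand): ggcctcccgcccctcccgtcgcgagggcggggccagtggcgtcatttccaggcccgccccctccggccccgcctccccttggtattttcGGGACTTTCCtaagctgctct
REL chr2:60881464-60881573 (plus strand): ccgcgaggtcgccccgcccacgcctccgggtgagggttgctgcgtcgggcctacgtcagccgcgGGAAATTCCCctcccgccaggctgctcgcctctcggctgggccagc
NFKBIA chr14:35404750-35404859 (minus strand): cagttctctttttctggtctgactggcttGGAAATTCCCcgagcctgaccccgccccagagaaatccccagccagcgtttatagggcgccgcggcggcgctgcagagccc
TNFAIP3 chr6:137867149-137867258 (plus strand): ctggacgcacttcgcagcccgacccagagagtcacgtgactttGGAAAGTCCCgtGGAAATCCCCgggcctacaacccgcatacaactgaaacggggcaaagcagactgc
In NFKB1 the match lay 49 to 40 bases before the start, and in REL 46 to 37 bases before it on the opposite strand. TNFAIP3 held 2 matches, at 67 to 58 and 55 to 46 bases, both on the opposite strand. NFKB2 had 1 match in each of 2 windows, at 78 to 69 and at 21 to 12 bases, and NFKBIA had 1 at 81 to 72 bases on the opposite strand. The windows of RELA and MALT1 did not hold these letters. Other spellings of the kB site were not searched, so sequence without capitals is not shown to be free of them. The genes with matches moved in both directions between the lines: NFKB1 and TNFAIP3 were lower in LY19Y646F, REL and NFKBIA were higher, and NFKB2 did not pass the test.

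All values are FPKM (fragments per transcript length, relative to all mapped fragments of the library), which are scaled to length and so allow levels of different genes to be set side by side. Differences are LY19Y646F minus LY19WT on the log2(FPKM + 1) scale, which understates the change of low genes. A gene is called where limma's two-sided p, adjusted by Benjamini-Hochberg over all 10719 genes, is under 0.05. By that rule 5 of the 8 tested members were called. REL, NFKBIA and MALT1 were higher and NFKB1 and TNFAIP3 were lower in LY19Y646F, while NFKB2, RELA and RELB did not pass. By the same rule 33.3% of the 10719 genes passed, 16.7% as higher and 16.5% as lower, so differences were common between these lines. The median difference was 0.54 over the 8 members and -0.03 over all tested genes. The member count depended on single libraries, with 2 called without LY19Y646F replicate 2, 3 without LY19Y646F replicate 3 and 3 without LY19WT replicate 2. In LY19WT replicate 3 the 10 highest rows held 27.5% of the summed FPKM, against 5.71% to 9.38% in the other libraries, and without it 4 members were called. In the order given, 25.4%, 27.1%, 25.5% and 26.6% of all tested genes passed in these 4 comparisons. NFKB1 and TNFAIP3 were called in each of these. In bulk RNA, fewer cells of a type and less RNA per cell cannot be told apart.

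**Figure D1:**
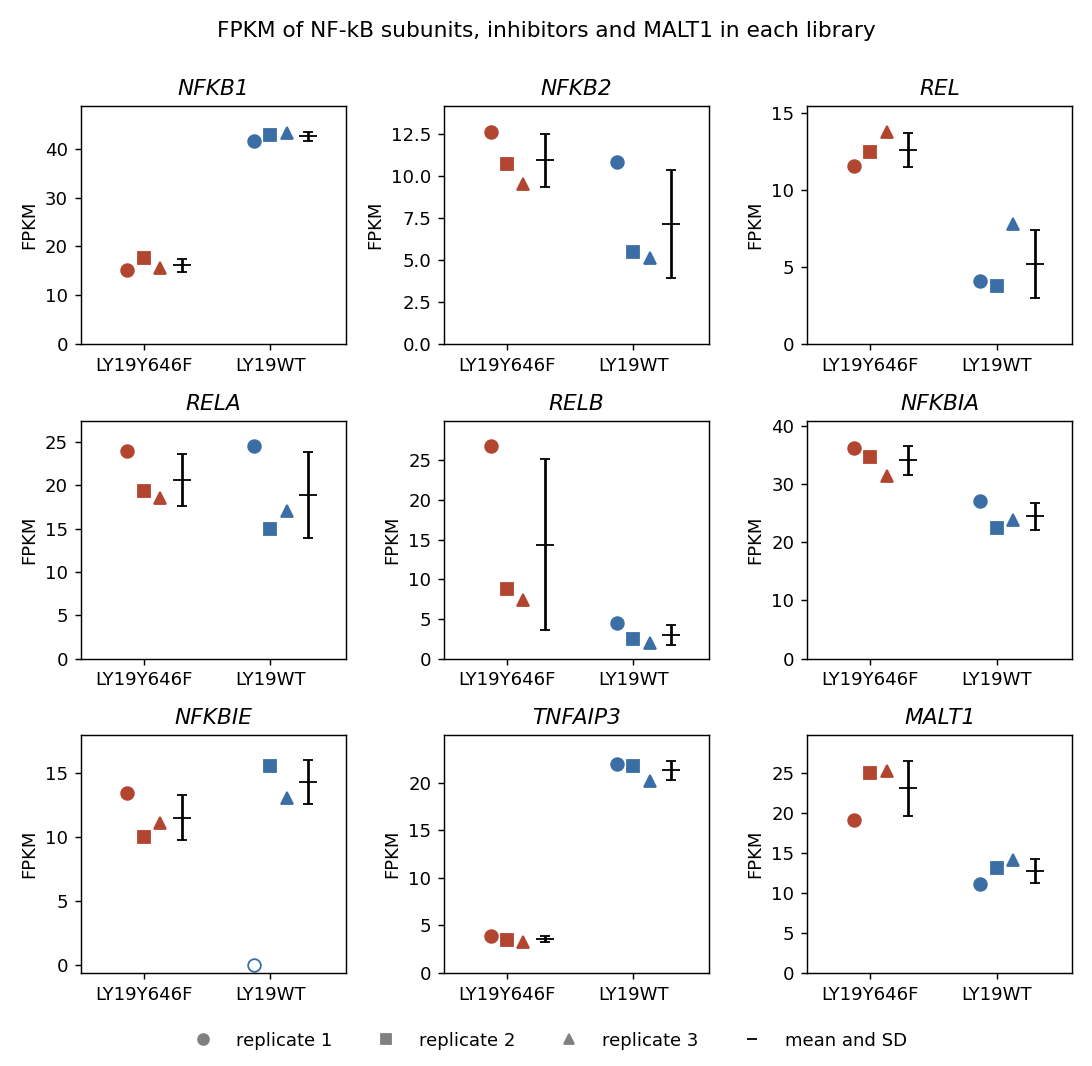
FPKM of the 9 genes in the 3 LY19Y646F and 3 LY19WT libraries (linear axis, one panel per gene). Symbols give the replicate numbers, and the mean with its SD stands beside them. Each axis starts at 0, except that of NFKBIE, which starts just below 0. NFKB1 and TNFAIP3 stand wholly lower in LY19Y646F, REL, RELB, NFKBIA and MALT1 wholly higher, and the open circle of NFKBIE marks the merged row listed at 0, which is not in its mean.

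Among the subunits, NFKB1, which encodes the p105 precursor of p50, fell in LY19Y646F. The gene (hg19 chr4:103422486-103538459) had 15.1, 17.6 and 15.6 FPKM in LY19Y646F, against 41.6, 42.9 and 43.3 FPKM in LY19WT. The groups did not overlap, and within each line the libraries stood close together. The means were 16.1 ± 1.35 FPKM in LY19Y646F and 42.6 ± 0.921 FPKM in LY19WT (SD, n = 3 each), a level 2.64 times higher in LY19WT. The log2 difference was -1.35 (SE 0.099, 95% interval -1.60 to -1.10, limma adjusted p = 0.000384). Of all tested genes 21.4% had a larger absolute difference. The authors' deposited table gave the same direction, with 22.9 FPKM for LY19Y646F and 61.4 FPKM for LY19WT.

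REL, which encodes c-Rel, the Rel protein most tied to lymphoid cells, rose in LY19Y646F. Its row (hg19 chr2:61108656-61158745, shared in every library with the non-coding RP11-373L24.1) had 11.5, 12.5 and 13.8 FPKM in LY19Y646F, against 4.09, 3.77 and 7.77 FPKM in LY19WT. Every LY19Y646F library stood above every LY19WT library, and LY19WT replicate 3 was the nearest to them. The means were 12.6 ± 1.13 FPKM in LY19Y646F and 5.21 ± 2.22 FPKM in LY19WT (SD, n = 3 each). The log2 difference was 1.18 (SE 0.27, 95% interval 0.51 to 1.86, limma adjusted p = 0.0216). The adjusted p was 0.0704 without LY19Y646F replicate 2, 0.0736 without LY19Y646F replicate 3, 0.0662 without LY19WT replicate 1 and 0.0683 without LY19WT replicate 2, with differences of 1.02 or more in each. In LY19Y646F replicates 1 and 2 the assembled locus ran on to 61170885 and 61170927, and the part of that extension in the difference was not tested.

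RELA, which encodes p65, the main transactivating subunit of the canonical pathway, was not called. The gene (hg19 chr11:65421067-65430565) had 24.0, 19.3 and 18.5 FPKM in LY19Y646F, against 24.5, 15.0 and 17.1 FPKM in LY19WT. The groups overlapped, and replicate 1 was the highest library of each line. The log2 difference was 0.14 (SE 0.22, 95% interval -0.40 to 0.69, limma adjusted p = 0.652). The authors' deposited table put RELA the other way, at 27.9 FPKM for LY19Y646F and 32.5 FPKM for LY19WT. In LY19Y646F replicate 2 the assembled locus was wider and ended at 65588716.

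NFKB2 and RELB, the pair of the non-canonical pathway, were higher on average in LY19Y646F but did not pass the threshold. NFKB2 (hg19 chr10:104153867-104162281), the p100 precursor of p52, had 12.6, 10.7 and 9.51 FPKM in LY19Y646F, against 10.8, 5.44 and 5.09 FPKM in LY19WT. LY19WT replicate 1 lay within the LY19Y646F range, while the other LY19WT libraries were below it. The log2 difference of NFKB2 was 0.62 (SE 0.30, 95% interval -0.13 to 1.37, limma adjusted p = 0.177), and it was 0.92 (adjusted p = 0.0186) without LY19WT replicate 1. RELB (hg19 chr19:45504688-45541452), whose protein pairs mainly with p52, had 26.8, 8.81 and 7.41 FPKM in LY19Y646F, against 4.45, 2.51 and 1.95 FPKM in LY19WT. The groups did not overlap, yet LY19Y646F replicate 1 stood far above the other libraries of its line. The means were 14.3 ± 10.8 FPKM in LY19Y646F and 2.97 ± 1.31 FPKM in LY19WT (SD, n = 3 each), a ratio of 4.82. The log2 difference was 1.78 (SE 0.53, 95% interval 0.44 to 3.12, limma adjusted p = 0.0536). RELB was called without LY19Y646F replicate 1, at a smaller difference of 1.24 (adjusted p = 0.0413). No row of the authors' deposited table was named RELB, REL or MALT1 alone, so no value from it is given for them.

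The 5 subunit genes summed to 74.6 ± 13.5 FPKM in LY19Y646F and 76.8 ± 8.0 FPKM in LY19WT (SD, n = 3 each), so the sums overlapped while their make-up did not stay the same. NFKB1 held 16.8%, 25.6% and 24.1% of the sum in the LY19Y646F libraries, against 48.7%, 61.6% and 57.6% in the LY19WT libraries. NFKB1 was thus the largest share of every LY19WT library and of no LY19Y646F library. RELA held 27.8% ± 0.986 of the sum in LY19Y646F and 24.3% ± 3.84 in LY19WT. REL held 17.4% ± 4.28 in LY19Y646F and 6.84% ± 3.03 in LY19WT. RELB held 18.0% ± 10.2 in LY19Y646F and 3.80% ± 1.32 in LY19WT (SD, n = 3 each throughout). Of the 2 precursor genes, NFKB1 stood at 1.5 ± 0.259 times NFKB2 in LY19Y646F and at 6.75 ± 2.53 times NFKB2 in LY19WT. RELA stood at 1.66 ± 0.381 times REL in LY19Y646F and at 4.06 ± 1.90 times REL in LY19WT. These shares and ratios restate the FPKM above as proportions, carry no test of their own and speak of RNA, not of protein or of processed p50 and p52.

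**Figure D2:**
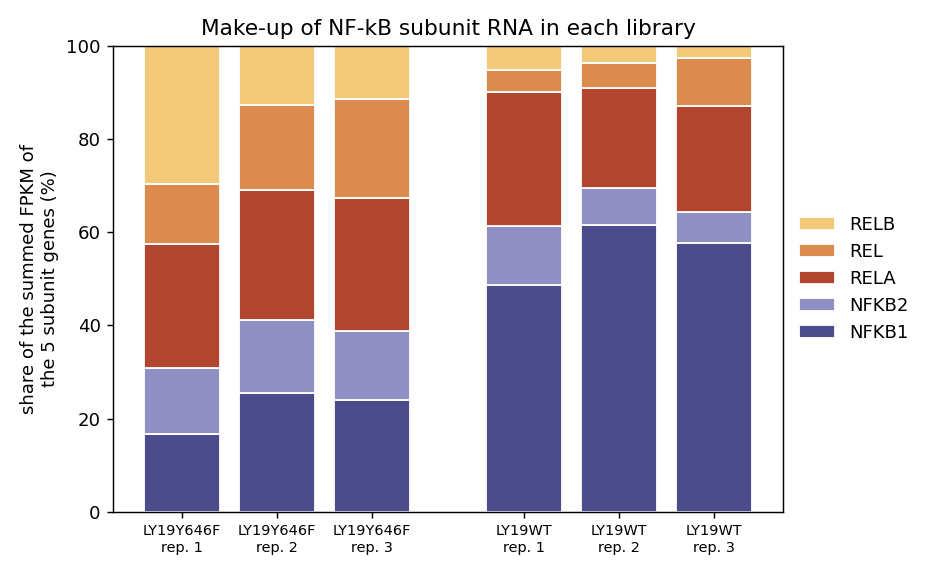
Share (%) of each of the 5 subunit genes in their summed FPKM, one stacked bar per library, LY19Y646F on the left and LY19WT on the right. NFKB1 takes 16.8% to 25.6% of the bars of LY19Y646F and 48.7% to 61.6% of those of LY19WT, and RELB reaches 29.7% in LY19Y646F replicate 1.

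The inhibitors parted. TNFAIP3, which encodes the ubiquitin-editing enzyme A20 and is a frequent target of loss in B cell lymphoma, fell the most of all members. The gene (hg19 chr6:138188351-138204449) had 3.91, 3.45 and 3.31 FPKM in LY19Y646F, against 22.0, 21.8 and 20.2 FPKM in LY19WT. The groups were far apart and each was narrow. The means were 3.56 ± 0.315 FPKM in LY19Y646F and 21.3 ± 1.00 FPKM in LY19WT (SD, n = 3 each), 5.99 times higher in LY19WT. This was a log2 difference of -2.29 (SE 0.11, 95% interval -2.57 to -2.01, limma adjusted p = 9.1e-05), and 9.06% of tested genes had a larger absolute difference. The authors' deposited table gave 6.14 FPKM for LY19Y646F and 37.5 FPKM for LY19WT.

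NFKBIA, which encodes IkB-alpha, the inhibitor that is destroyed and remade in each canonical response, rose. The gene (hg19 chr14:35870717-35873955) had 36.1, 34.6 and 31.4 FPKM in LY19Y646F, against 27.0, 22.5 and 23.8 FPKM in LY19WT. The groups did not overlap, though the gap between them was small. On the log2 scale the difference was 0.46 (SE 0.11, 95% interval 0.18 to 0.75, limma adjusted p = 0.0295), a ratio of means of 1.39. NFKBIA was not called without LY19Y646F replicate 1 (adjusted p = 0.0553), LY19Y646F replicate 2 (0.0973), LY19WT replicate 2 (0.101) or LY19WT replicate 3 (0.0926). NFKBIA thus moved against TNFAIP3. It stood at 9.23, 10.0 and 9.47 times the level of TNFAIP3 in the LY19Y646F libraries, against 1.23, 1.03 and 1.18 times in the LY19WT libraries. The authors' deposited table gave NFKBIA 39.7 FPKM and TNFAIP3 6.14 FPKM for LY19Y646F. For LY19WT it gave NFKBIA 29.9 FPKM and TNFAIP3 37.5 FPKM, so there NFKBIA was the lower of the 2.

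NFKBIE, which encodes IkB-epsilon, an inhibitor that acts on dimers of RELA and REL, could be compared in 5 libraries. The gene (hg19 chr6:44225903-44233500) had 13.4, 10.0 and 11.1 FPKM in LY19Y646F, against 15.5 and 13.1 FPKM in LY19WT replicates 2 and 3. These ranges overlapped. In LY19WT replicate 1 its only row also named MIR4647 and the protein-coding SLC35B2 and was listed at 0 FPKM, which is no measurement of NFKBIE alone. Without that library the mean was 11.5 ± 1.76 FPKM in LY19Y646F (SD, n = 3) and 14.3 ± 1.73 FPKM in LY19WT (SD, n = 2), a log2 difference of -0.29. A two-sided exact permutation test over the 5 libraries gave p = 0.30. Counting the merged row as NFKBIE turned the difference to 1.02 (limma adjusted p = 0.56), so this sign rests on how that row is read. The authors' deposited table gave 13.3 FPKM for LY19Y646F and 17.0 FPKM for LY19WT.

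MALT1, the paracaspase of the CBM complex that cleaves A20 among other substrates, rose. Its row (hg19 chr18:56338618-56421709, shared in every library with the non-coding RP11-108P20.1) had 19.1, 24.9 and 25.2 FPKM in LY19Y646F, against 11.1, 13.1 and 14.0 FPKM in LY19WT. Every LY19Y646F library stood above every LY19WT library. The means were 23.1 ± 3.42 FPKM in LY19Y646F and 12.8 ± 1.48 FPKM in LY19WT (SD, n = 3 each). On the log2 scale it was higher by 0.80 (SE 0.16, 95% interval 0.40 to 1.20, limma adjusted p = 0.0140), and the call was lost without LY19Y646F replicate 2 (0.0563) or replicate 3 (0.0513). For LY19WT replicate 3 Cufflinks gave an interval of 0 to 41.3 FPKM, so that library's own value is loosely set. BCL10, the adaptor of the complex that binds MALT1, was not called. It had 9.94, 7.39 and 10.2 FPKM in LY19Y646F, against 8.09, 10.3 and 6.95 FPKM in LY19WT, ranges that overlapped (limma adjusted p = 0.703).

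**Figure D3:**
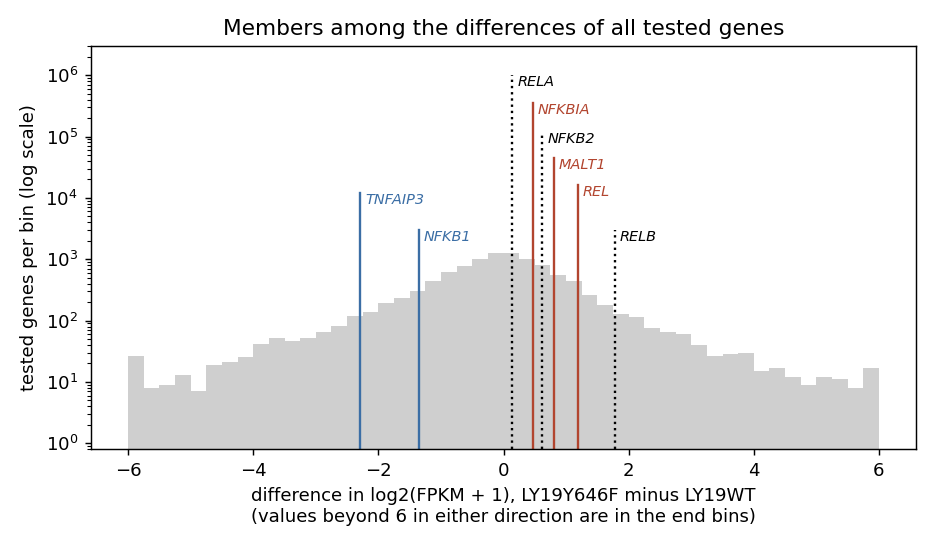
Histogram of the log2(FPKM + 1) differences, LY19Y646F minus LY19WT, of all 10719 tested genes (number of genes per bin, log axis), with a vertical line for each of the 8 tested members, solid where called and dotted where not. The heights of the lines only separate the labels. TNFAIP3 at -2.29 and NFKB1 at -1.35 lie on the lower side, and RELB at 1.78 is the member farthest on the upper side.

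Ordered by level within a line, NFKBIA was the highest of the 9 genes in LY19Y646F at 34.0 FPKM, and its libraries did not overlap those of MALT1 (23.1 FPKM), the next gene. MALT1 and RELA (20.6 FPKM) overlapped each other, and RELA stood clear of NFKB1, the next in order. NFKB1, RELB, REL, NFKBIE and NFKB2 followed between 16.1 and 10.9 FPKM, each overlapping its neighbour, and TNFAIP3 was lowest at 3.56 FPKM and clear of them. In LY19WT the order was led by NFKB1 at 42.6 FPKM, clear of NFKBIA at 24.4 FPKM, which was clear of TNFAIP3 at 21.3 FPKM. TNFAIP3 overlapped RELA, RELA overlapped NFKBIE and NFKBIE overlapped MALT1. MALT1 stood clear of NFKB2, and NFKB2, REL and RELB made up the low end at 7.11, 5.21 and 2.97 FPKM. By these values TNFAIP3 was thus the lowest of the 9 in LY19Y646F and the third highest in LY19WT. The authors' deposited table, which names 6 of the 9, ordered LY19WT otherwise. There NFKB1 had 61.4, TNFAIP3 37.5, RELA 32.5 and NFKBIA 29.9 FPKM. For LY19Y646F that table also had NFKBIA highest of those 6, at 39.7 FPKM, and TNFAIP3 lowest, at 6.14 FPKM.

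The libraries of a line did not vary alike. Replicate 1 was the highest library of both lines for 5 of the 8 tested members, namely NFKB2, RELA, RELB, NFKBIA and TNFAIP3, against 23.4% of all tested genes. Without both libraries numbered 1, a comparison added after seeing the data, 6 of the 8 members were called, against 43.3% of all genes tested in that fit. NFKB2 (0.82, limma adjusted p = 0.0131) and RELB (1.5, adjusted p = 0.0103) were then called higher, and REL (1.13, adjusted p = 0.0972) was not. The 3 libraries of each line did not overlap for 6 of the 8 members, against 48.6% of all tested genes. For a single gene, 3 libraries against 3 allow an exact permutation p of 0.10 at the smallest.

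The RNA of 97 further genes of the pathway was described with the same fit. Of 59 that could be tested, 14 were higher and 13 lower in LY19Y646F, 45.8% in all against 33.3% of all tested genes. The lists were chosen with earlier results of these data known, so these shares are not an independent comparison. Among the other IkB proteins and their relatives, 2 of 5 tested genes (40%) rose and none fell (median difference 0.63). Both were nuclear IkB proteins. NFKBID had 8.53, 3.80 and 4.36 FPKM in LY19Y646F, against 0.593, 0.533 and 0.309 FPKM in LY19WT (log2 difference 2.09, limma adjusted p = 0.00435). BCL3, a partner of p50 and p52 dimers, had 4.76, 2.54 and 13.5 FPKM in LY19Y646F, and in LY19WT it had 0.0292 and 0.0266 FPKM and was listed at 0 in the third library (log2 difference 2.71, limma adjusted p = 0.0134). The LY19Y646F libraries of BCL3 differed widely among themselves but none came near LY19WT. Without both libraries numbered 1 BCL3 was not called (adjusted p = 0.0804).

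Of the IKK and TAK1 kinases and their adaptors, 3 of 8 tested genes fell and none rose (median difference -0.13). This was 37.5%, near the 33.3% of all tested genes, and 3 of the 11 listed genes were left out for a shared or failed row. IKBKB, the kinase that marks IkB proteins in the canonical pathway, had 9.73, 8.05 and 7.75 FPKM in LY19Y646F, against 31.7, 30.2 and 25.4 FPKM in LY19WT. Its log2 difference was -1.66 (limma adjusted p = 0.000678), and the groups were far apart. TAB2, an adaptor of TAK1, averaged 15.5 ± 2.5 FPKM in LY19Y646F and 24.9 ± 3.05 FPKM in LY19WT (SD, n = 3 each; log2 difference -0.66, limma adjusted p = 0.0323). The TAB2 call was lost without LY19Y646F replicate 2 or 3 (adjusted p of 0.0759 and 0.0513) and without LY19WT replicate 2 or 3 (0.106 and 0.103). IKBKG, the regulatory subunit of IKK, was listed at 0 in each LY19Y646F library, against 8.55, 2.26 and 3.51 FPKM in LY19WT, and passed the test. The authors' deposited table gave IKBKG 6.84 FPKM for LY19Y646F and 10.2 FPKM for LY19WT, and the gene has a near-identical pseudogene copy, so its zeros are uncertain.

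Of the inputs to the CBM complex, 1 of 5 tested genes rose and none fell (median difference 0.74). This was 20%, against 33.3% of all tested genes. The gene called was PRKCQ, a protein kinase C known from T cells. It had 1.07, 1.01 and 0.985 FPKM in LY19Y646F and was listed at 0 in each LY19WT library. None of 7 tested TRAF, cIAP and ubiquitin ligase genes was called (median difference 0.16). In this list BIRC3, the cIAP2 ubiquitin ligase and a well-known NF-kB target, could not be tested because it shared a row with BIRC2 in LY19Y646F replicate 3 and LY19WT replicate 1. BIRC3 is named here after its values were seen. It had 67.8 and 90.4 FPKM in LY19Y646F replicates 1 and 2, against 2.41 and 2.51 FPKM in LY19WT replicates 2 and 3, and the shared rows held 109 FPKM and 14.2 FPKM. With merged rows counted for each gene its log2 difference was 3.96 (limma adjusted p = 0.0106), and the authors' deposited table gave 97.0 FPKM for LY19Y646F and 3.24 FPKM for LY19WT.

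Of the deubiquitinases and partners of A20, 3 of 9 tested genes rose and 2 fell (median difference 0.27). In all 55.6% were called, against 33.3% of all tested genes. TAX1BP1, an adaptor that A20 needs to act on its substrates, had 52.8, 67.0 and 68.9 FPKM in LY19Y646F, against 35.7, 36.1 and 39.0 FPKM in LY19WT (log2 difference 0.74, limma adjusted p = 0.00954). CYLD, a deubiquitinase of the same pathway, averaged 8.35 ± 1.16 FPKM in LY19Y646F and 4.93 ± 0.726 FPKM in LY19WT (SD, n = 3 each; adjusted p = 0.0306). TNIP1, an A20-binding protein, averaged 23.3 ± 5.95 FPKM in LY19Y646F and 12.8 ± 2.69 FPKM in LY19WT (adjusted p = 0.0496). Neither call was firm. The CYLD call was lost when any library other than LY19Y646F replicate 1 was left out (adjusted p of 0.0663 to 0.105), and that of TNIP1 on leaving out any of the 6 except LY19WT replicate 1 (0.0628 to 0.141). OTUD7B, also called Cezanne and a relative of A20, fell to 0.460 ± 0.0511 FPKM in LY19Y646F, against 3.24 ± 0.337 FPKM in LY19WT (log2 difference -1.54, limma adjusted p = 0.000623). USP18, best known for removing ISG15, fell to 0.0523 ± 0.0156 FPKM in LY19Y646F, against 1.59 ± 0.266 FPKM in LY19WT (adjusted p = 0.00148).

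**Figure D4:**
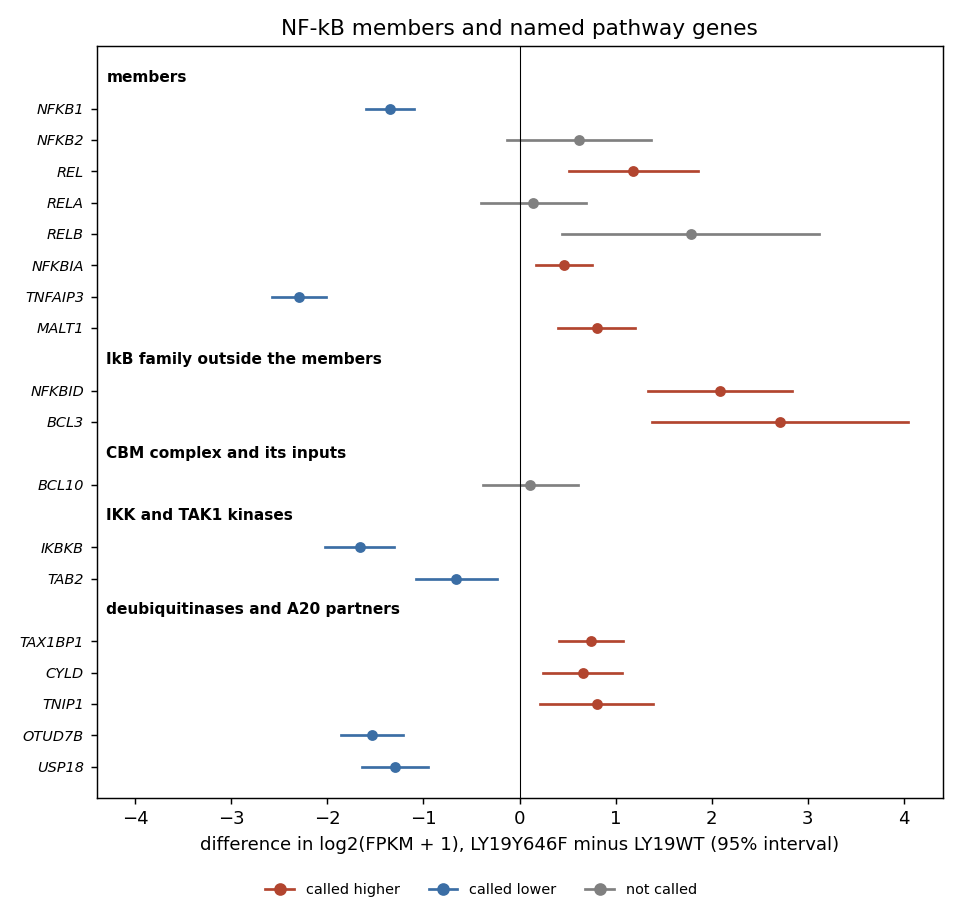
Differences in log2(FPKM + 1), LY19Y646F minus LY19WT, with limma's 95% intervals, not adjusted for the number of genes, for the 8 tested members and named genes of 4 groups of the pathway. IKBKG and PRKCQ are not drawn because each was listed at 0 in every library of a line. Of the genes drawn, NFKB1, TNFAIP3, IKBKB, TAB2, OTUD7B and USP18 lie below 0, and RELB is drawn grey because its adjusted p was above 0.05 although its interval lies above 0.

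Genes listed as targets of NF-kB split evenly in the main fit, with 6 higher and 6 lower of 16 tested (median difference -0.36). Thus 75% of those tested were called, against 33.3% of all tested genes. Of the 31 listed, 6 were left out for a shared or failed row and 9 for low values. With merged rows counted for every gene, 7 were higher and 5 lower of 21. The list was drawn from general knowledge but with earlier results of these data known, so its counts are a description only. Its genes also answer to many other regulators. PLEK, a platelet and leukocyte signalling protein, averaged 48.5 ± 4.04 FPKM in LY19Y646F and 1.37 ± 0.357 FPKM in LY19WT (SD, n = 3 each, as for the genes that follow). CD86, the co-stimulatory ligand, averaged 13.9 ± 2.39 FPKM in LY19Y646F and 0.0636 ± 0.0440 FPKM in LY19WT. BCL2A1, an anti-apoptotic BCL2 relative, averaged 3.97 ± 0.483 FPKM in LY19Y646F and 0.0253 ± 0.0272 FPKM in LY19WT. On the other side, MYB, a transcription factor of haematopoietic progenitors, averaged 34.7 ± 6.80 FPKM in LY19Y646F and 171 ± 19.1 FPKM in LY19WT. CCR7, a lymph node homing receptor, averaged 0.419 ± 0.162 FPKM in LY19Y646F and 6.22 ± 1.67 FPKM in LY19WT. CD44, an adhesion receptor, was listed at 0 in each LY19Y646F library, against 1.87, 2.48 and 2.95 FPKM in LY19WT. The zeros of CD44 are uncertain, since these tables also list SHARPIN at 0 in all 6 libraries, while the authors' deposited table gives SHARPIN 5.77 FPKM for LY19Y646F and 11.7 FPKM for LY19WT. Each of these 6 was called, with limma adjusted p of 0.000892 or less. Of the receptors and receptor-proximal proteins that feed NF-kB in B cells, 2 of 9 tested rose and 2 fell (median difference -0.32). In all 44.4% of them were called, against 33.3% of all tested genes. CD79B, a signalling chain of the B cell receptor, had 337, 312 and 277 FPKM in LY19Y646F, against 177, 163 and 140 FPKM in LY19WT (limma adjusted p = 0.00348). TNFRSF13B, the receptor TACI, was also higher, at 1.78 ± 0.411 FPKM in LY19Y646F and 0.729 ± 0.173 FPKM in LY19WT (adjusted p = 0.0303), a call lost when any library other than LY19Y646F replicate 1 was left out (adjusted p of 0.0522 to 0.0899). TNFRSF1B, the second TNF receptor, was lower, at 0.115 ± 0.144 FPKM in LY19Y646F and 2.49 ± 1.17 FPKM in LY19WT (adjusted p = 0.00789). MYD88, the adaptor of Toll-like receptors, was lower as well, at 25.7 ± 0.723 FPKM in LY19Y646F and 34.4 ± 1.69 FPKM in LY19WT (SD, n = 3 each; adjusted p = 0.0188). The MYD88 call was lost without LY19Y646F replicate 2 (0.0649), LY19Y646F replicate 3 (0.0524) or LY19WT replicate 2 (0.0698).

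For 7 of the tested members the gene with the most similar pattern was taken as the one with the smallest Euclidean distance over the log2(FPKM + 1) values of the 6 libraries. It was STARD3NL for NFKB1 (distance 0.204), ZDHHC21 for REL (0.497) and RPL24P7 for RELA (0.206). It was HIP1R for RELB (0.546), TXNDC15 for NFKBIA (0.202), ARL11 for TNFAIP3 (0.286) and PHTF2 for MALT1 (0.247). HIP1R repeated the spread of RELB within LY19Y646F, with 25.9, 7.33 and 5.97 FPKM in LY19Y646F, against 3.91, 2.61 and 1.27 FPKM in LY19WT. ARL11 followed TNFAIP3 in level, at 3.38 ± 0.306 FPKM in LY19Y646F and 21.3 ± 3.02 FPKM in LY19WT (SD, n = 3 each). These likenesses follow from how the genes were picked and are no separate result.

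Some other features of the libraries differed between the lines, while EZH2 RNA was not called. EZH2 had 70.2, 80.4 and 93.5 FPKM in LY19Y646F, against 60.6, 76.5 and 74.7 FPKM in LY19WT (limma adjusted p = 0.383), and these tables do not separate the mutant from the wild-type transcript. Of 8 B cell markers the summed level was 617 to 972 FPKM in LY19Y646F and 420 to 495 FPKM in LY19WT, with 1 of 5 tested higher and 1 lower, and MS4A1 (CD20) was under 1 FPKM in every LY19WT library. Of 6 precursor B cell markers the sum was 1.76 to 5.73 FPKM in LY19Y646F and 781 to 2345 FPKM in LY19WT, with 4 of 4 tested lower in LY19Y646F and CD34 near 0 in both lines. Of 4 plasma cell markers the sum was 31.9 to 46.3 FPKM in LY19Y646F and 153 to 170 FPKM in LY19WT, with 3 of 3 tested lower. The remaining plasma cell marker, TNFRSF17, went the other way. It had 7.77, 18.5 and 11.1 FPKM in LY19Y646F, against 0.0387 FPKM in LY19WT replicate 1 and listed zeros in the other LY19WT libraries, and it was not in the fit. The sums of 6 T cell markers (1.25 to 1.64 FPKM in LY19Y646F, 0.00954 to 0.0698 FPKM in LY19WT) and of 6 epithelial and stromal markers (0.0304 to 0.201 FPKM in LY19Y646F, 0.787 to 0.840 FPKM in LY19WT) were low. Of 6 myeloid markers the sum was 0.374 to 0.723 FPKM in LY19Y646F and 11.4 to 14.0 FPKM in LY19WT, nearly all of it LYZ. The part of these marker differences in the NF-kB results was not tested. The read depth of each library was not given in the sources used here.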

How the data were processed

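Polyadenylated RNA of 3 LY19Y646F and 3 LY19WT libraries was made into stranded, single-end libraries, per the labels' protocols. STAR 2.5.3a, Cufflinks 2.2.1 and Cuffdiff 2.2.1 were run, with hg19 as the genome, per the submitters' processing notes. The authors deposited a table of FPKM per library, in which loci were assembled for that library alone, so a gene can share a row with a neighbour in one library and not in another (3189 to 3443 rows per library name several genes). The authors' deposited Cuffdiff table, with 6 of the 9 members among 13674 genes, holds the 2 lines' mean FPKM with their log2 fold change and no p-value. FPKM are already scaled to each library's total, and counts, and so read depth, are not given in the sources used here.

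Rows were joined by symbol. A row was used for a gene where the gene was its only protein-coding name, with types from GENCODE. Symbols in a failed row, or in one shared with another protein-coding gene, in any library were left out (8932 of 56584). The 10719 genes that averaged 0.5 FPKM or more were put on the log2(FPKM + 1) scale and fitted in R 4.3.3 by limma 3.58.1 (lmFit, eBayes with trend, two-sided, Benjamini-Hochberg adjustment over all tested genes, threshold 0.05). Joins, exact permutation tests and plots used matplotlib 3.10.9, scipy 1.17.1, numpy 2.4.6 and pandas 2.3.3 under Python 3.11.15. The fit was tested on simulated data. Alternatives varied the pseudocount, the filter, the scaling, the treatment of merged rows, library weights, the replicate block and the libraries included.

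The members, the 7 pathway lists and the 6 marker lists were chosen with earlier results of these data known. Named genes were all members, BCL10, EZH2, the nearest gene of each member, and up to 3 called genes per list and direction with the smallest adjusted p. BIRC3 is the exception stated in the text. Of the genes this rule names, 2 are not reported here.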

Additional observations from a re-analysis of the deposited data

How the results depend on the processing

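NFKB1 and TNFAIP3 were called lower in each of the 17 alternatives tried, with limma adjusted p of 0.00473 or less. RELA was called in none of 17, and its difference ranged between 0.00 and 0.34. Without each library in turn, 2709 to 4027 genes, 2 to 5 members and 18 to 26 pathway genes were called, against 3568, 5 and 27 with all libraries. With library weights estimated by limma, 5782 genes were called. With only genes alone in their row in every library, 3 members were called of 6 tested, since REL and MALT1 share theirs with a non-coding gene. The labels do not say that replicate numbers pair the libraries. The correlation of same-numbered deviations was 0.263, 0.0991 and 0.133, and every library correlated best with its own number. With the replicate block 3884 genes, 6 members and 32 pathway genes were called, RELB being added (adjusted p = 0.0183). RELB was also called with a pseudocount of 0.1 (0.0478), quantile normalization (0.0293) and library weights (0.00471), and NFKB2 with library weights (0.0113). The difference of BCL10 changed sign to -0.17 with library weights, and it ranged between -0.00588 (without LY19WT replicate 3) and 0.245 (without LY19WT replicate 2) with 1 library left out, with no call in any of these. The cause of these changes was not tested. With merged rows counted for every gene and LY19WT replicate 1 left out, an alternative chosen after seeing the data, MALT1 (0.0612) and REL (0.0940) were not called. The scaling moved the median of all genes to 0.05 (quantile) and -0.07 (upper quartile), against -0.03. Precision rests on 3 libraries per line. The deposited tables hold Cufflinks' own intervals but no read counts, so no counting interval or detection limit was computed.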
